A study of Danio rerio with 10 samples.

Results

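The interferon regulatory factors (IRFs) are a family of transcription factors, and 9 of their genes in zebrafish were sought on an array of the testis: irf1a, irf1b, irf2, irf3, irf5, irf7, irf8, irf9 and irf10. A gene was taken where the platform's annotation gives a probe exactly its symbol, and 8 of the 9 were found among 19260 genes in all, each with 1 probe. irf2 had no probe under that symbol and was not analysed here. The rule itself uses no measured difference, but the genes were proposed with earlier results of these data known.

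RNA came from testes of adult male zebrafish (Danio rerio) of the AB strain, wild type, 1 year old. Group TCDD (5 arrays) came from fish that had been held for 1 h in water with 50 pg/ml TCDD, the dioxin 2,3,7,8-tetrachlorodibenzo-p-dioxin, at 3 and again at 7 weeks after fertilization. Group DMSO (5 arrays) came from fish given the solvent alone at the same ages. The question was whether adult testes differ after a brief dioxin exposure during gonad development, and the labels call the arrays of a group biological replicates without saying how many fish each holds.

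IRF proteins share a DNA-binding domain at the amino end that recognizes interferon-stimulated response elements in the promoters of antiviral and immune genes. IRF3 and IRF7 wait in the cytoplasm until kinases downstream of nucleic acid sensors phosphorylate them, and they then switch on interferon genes. Interferon acts on its receptors through Janus kinases (JAK) and STAT proteins, and IRF9 joins STAT proteins to drive the interferon-stimulated genes. IRF8 directs the formation of macrophages, so that its level in a bulk tissue can follow its leukocytes. The mammalian testis is known for a restrained immune response in which resident macrophages take part.

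Deposited values were taken as log2 from their range, so that a difference of 1 is a doubling, and all differences are TCDD minus DMSO with a 95% confidence interval from limma. Array medians lay between 6.71 and 6.87. The testis label held in the sense that the germ cell list was bright, with a mean over its 16 measured genes of 10.1 to 10.9 in TCDD and 10.5 or more in DMSO 2 to DMSO 5. DMSO 1 stood apart at 8.45, and its mean correlation to the other arrays was 0.918, against 0.952 or more for each of the other arrays. Intestine genes (14 measured) had means of 9.80 in TCDD 2, 9.47 in TCDD 3 and 10.6 in DMSO 1, where the remaining 7 arrays spanned 6.37 to 7.25.

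No IRF gene passed an adjusted p of 0.05 in limma with Benjamini-Hochberg adjustment over all 19260 genes, where 0% of genes passed. irf7 alone had an unadjusted p under 0.05, which is 1 of 8 members against 2.48% of all genes (0.8% higher and 1.68% lower in TCDD). With quantile normalization, a variance trend or a replicate block, 0 of 8 members had one, against 2.40%, 2.66% and 2.07% of all genes. No member had groups that failed to overlap, against 0.493% of all genes. Of the members, 5 of 8 had a difference above 0, against 54.6% of all genes, and the members' median difference was 0.15, against 0.018 for all genes. The other 3 differences lay within 0.04 of 0, and their sign is not settled. Median centring of the arrays adds 0.041 to the difference of every gene, which puts 8 of 8 members and 64.8% of all genes above 0, and with quantile normalization it was 6 of 8 members and 54.7% of all genes.

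irf7 encodes the factor that is induced by interferon itself and amplifies the production of more interferon. Its probe (13162128) read 9.74, 10.30, 10.33, 10.44 and 10.20 in TCDD 1 to TCDD 5, against 10.03, 9.57, 10.08, 9.92 and 9.25 in DMSO 1 to DMSO 5. TCDD 2 to TCDD 5 lay above every DMSO array, while TCDD 1 lay below 3 of the DMSO arrays, so that the groups overlapped through 1 array. The TCDD mean was 10.20 ± 0.27 and the DMSO mean 9.77 ± 0.35 (SD, n = 5 each), and limma put TCDD minus DMSO at 0.43 (95% CI 0.012 to 0.85, limma unadjusted p = 0.0449, adjusted p = 1.00), which is 1.35-fold (1.01 to 1.81). By p it was number 426 among 19260 genes. With the replicate block the interval was -0.044 to 0.91, with quantile normalization -0.038 to 0.87 and with a variance trend -0.0026 to 0.87.

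The difference of irf7 stayed above 0 whichever array was left out, from 0.30 without DMSO 5 to 0.55 without TCDD 1. Without TCDD 1, the array through which they overlapped, the groups of irf7 were apart, as were those of 189 genes in all, against 95 genes over all 10 arrays. The unadjusted p was under 0.05 when TCDD 1, DMSO 1, DMSO 3 or DMSO 4 was left out, and between 0.0699 and 0.111 when any of the other 6 was. Without DMSO 1, whose testis genes were lowest, the difference was 0.50 (95% CI 0.068 to 0.93). Without TCDD 5, which was high in liver genes, and TCDD 2 and DMSO 1, which were high in intestine genes, it was 0.47 (95% CI -0.065 to 1.00). TCDD 3, also high in intestine genes, remained in that fit. So did TCDD 4, the highest array of irf7, with an exocrine pancreas list mean of 10.5. The other arrays of that fit spanned 8.24 to 9.36 for this list, and its part was not tested.

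**Figure D1:**
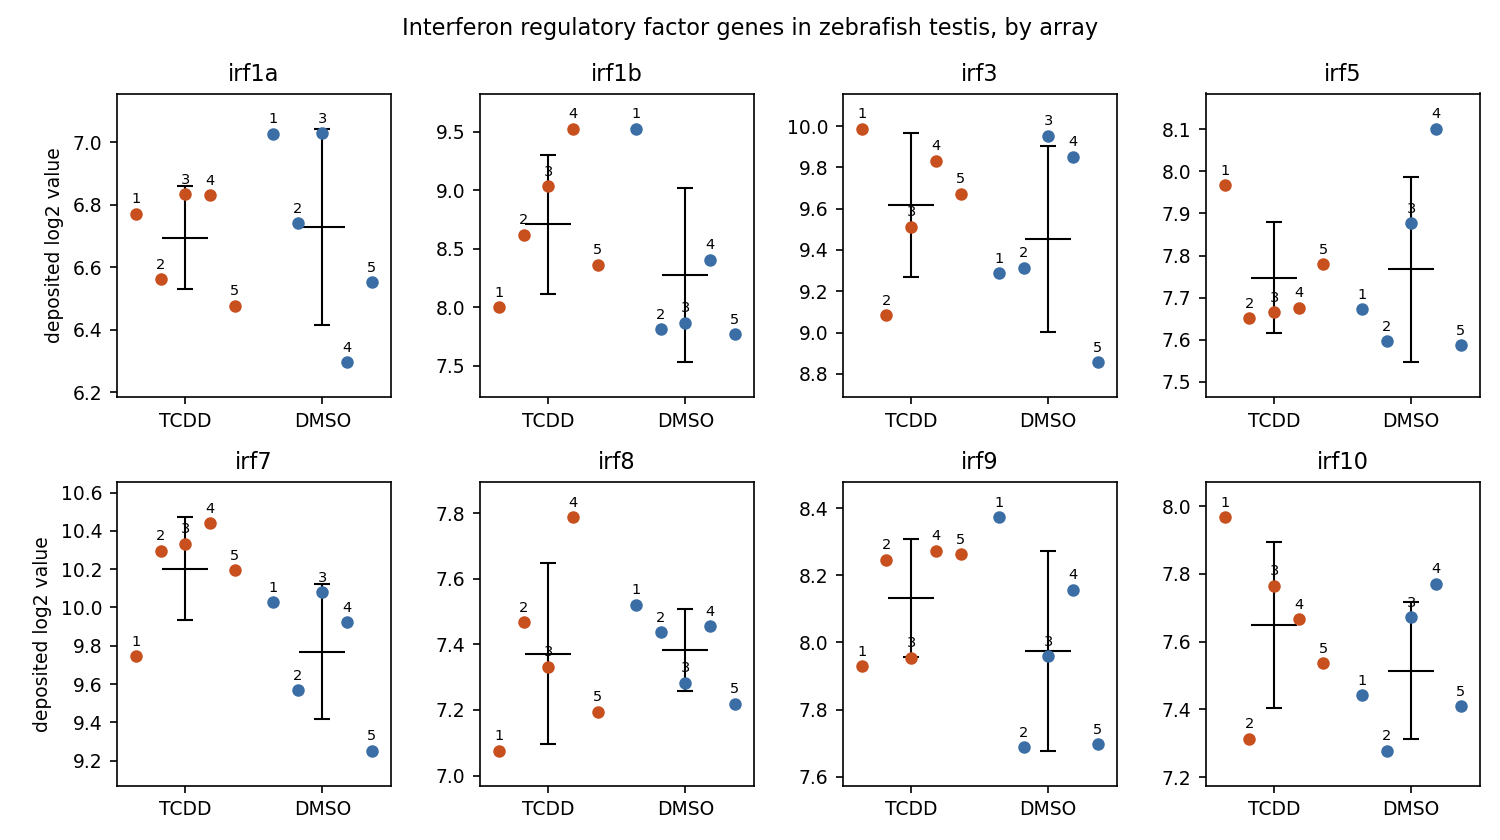
Deposited log2 value (vertical axis, a separate range per panel) of each of the 8 IRF genes in the TCDD and DMSO arrays; each point is an array with its replicate number, and the bar and whiskers are the mean and 1 SD of 5 arrays. For irf7, 4 of 5 TCDD points lie above all DMSO points, and in every panel the groups overlap.

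irf3 encodes the partner of irf7 in the first wave of interferon induction, which is present in cells before any infection. It read 9.99, 9.08, 9.51, 9.83 and 9.67 in TCDD 1 to TCDD 5, against 9.29, 9.31, 9.95, 9.85 and 8.86 in DMSO 1 to DMSO 5. Both groups spanned nearly the same range, and the lowest TCDD array was TCDD 2. The difference was 0.17 (95% CI -0.35 to 0.68, limma unadjusted p = 0.496), and it was 0.017 without DMSO 5 and 0.30 without TCDD 2. irf3 (probe 12982985) lay at the 91.5 percentile of probe brightness and irf7 at the 94.6 percentile.

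irf1a and irf1b are the zebrafish copies of IRF1, an activator induced by interferon gamma that turns on antigen presentation genes. irf1b (probe 13112632) read 8.0, 8.62, 9.04, 9.53 and 8.36 in TCDD 1 to TCDD 5, against 9.52, 7.81, 7.87, 8.40 and 7.77 in DMSO 1 to DMSO 5. A single DMSO array, DMSO 1, stood level with the highest TCDD array, while DMSO 2, DMSO 3 and DMSO 5 lay below every TCDD array. The TCDD mean was 8.71 ± 0.59 and the DMSO mean 8.27 ± 0.74 (SD, n = 5 each), and limma put TCDD minus DMSO at 0.43 (95% CI -0.40 to 1.26, limma unadjusted p = 0.274).

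Of the members irf1b varied most within groups, with a pooled SD of 0.67 that lay at the 90.6 percentile of all genes, and the 10 arrays spanned 3.38-fold. Without DMSO 1 its difference was 0.75 (95% CI 0.13 to 1.37, limma unadjusted p = 0.0229, adjusted p = 0.716), and 2 of 8 members then had an unadjusted p under 0.05, against 6.65% of all genes in the same fit. Without TCDD 4 the difference was 0.23. DMSO 1 was also the array with the highest macrophage, intestine and pancreas list means, and their part in the value of irf1b was not tested. With DMSO 1 and TCDD 2 both left out the difference was 0.77 (95% CI 0.091 to 1.45, limma adjusted p = 0.795). With TCDD 5 left out as well it was 0.89 (95% CI 0.16 to 1.62, limma adjusted p = 0.791). Both fits kept TCDD 4 and TCDD 3, the highest TCDD arrays of irf1b. TCDD 3 had an intestine list mean of 9.47 and TCDD 4 an exocrine pancreas list mean of 10.5, and their part was not tested.

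irf1a behaved otherwise, and was the dimmest of the members relative to all probes, at the 48.9 percentile. It read 6.77, 6.56, 6.83, 6.83 and 6.48 in TCDD 1 to TCDD 5, against 7.03, 6.74, 7.03, 6.30 and 6.55 in DMSO 1 to DMSO 5. The TCDD arrays lay inside the range of the DMSO arrays. The difference was -0.03 (95% CI -0.39 to 0.32, limma unadjusted p = 0.835).

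irf9 encodes the DNA-binding part of the complex that carries type I interferon signals to the nucleus. Its probe (12983849) read 7.93, 8.25, 7.96, 8.27 and 8.26 in TCDD 1 to TCDD 5, against 8.37, 7.69, 7.96, 8.16 and 7.70 in DMSO 1 to DMSO 5. DMSO 1 was the highest array of all, and DMSO 2 and DMSO 5 lay below every TCDD array. The difference was 0.16 (95% CI -0.19 to 0.51, limma unadjusted p = 0.336), and it was 0.26 without DMSO 1, 0.087 without DMSO 2 and 0.089 without DMSO 5.

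irf5 acts downstream of the adaptor MyD88 in inflammatory signalling, and irf8 in the formation of macrophages. irf5 read 7.97, 7.65, 7.67, 7.68 and 7.78 in TCDD 1 to TCDD 5, against 7.67, 7.60, 7.88, 8.10 and 7.59 in DMSO 1 to DMSO 5. It was the steadiest member, with a pooled within-group SD of 0.18 at the 17.9 percentile of all genes, and its difference was -0.02 (95% CI -0.31 to 0.27, limma unadjusted p = 0.885).

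irf8 read 7.08, 7.47, 7.33, 7.79 and 7.19 in TCDD 1 to TCDD 5, against 7.52, 7.44, 7.28, 7.45 and 7.22 in DMSO 1 to DMSO 5. The TCDD arrays held both the highest and the lowest value, and the difference was -0.01 (95% CI -0.33 to 0.31, limma unadjusted p = 0.939). In a bulk tissue a change in macrophage number and a change in irf8 RNA per macrophage cannot be told apart.

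irf10 belongs to a branch of the family known from birds and fish. It read 7.97, 7.31, 7.76, 7.67 and 7.54 in TCDD 1 to TCDD 5, against 7.44, 7.28, 7.67, 7.77 and 7.41 in DMSO 1 to DMSO 5. The groups overlapped over most of their range, and the difference was 0.14 (95% CI -0.19 to 0.46, limma unadjusted p = 0.383). It was 0.056 without TCDD 1, which held the highest value, and 0.22 without TCDD 2.

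**Figure D2:**
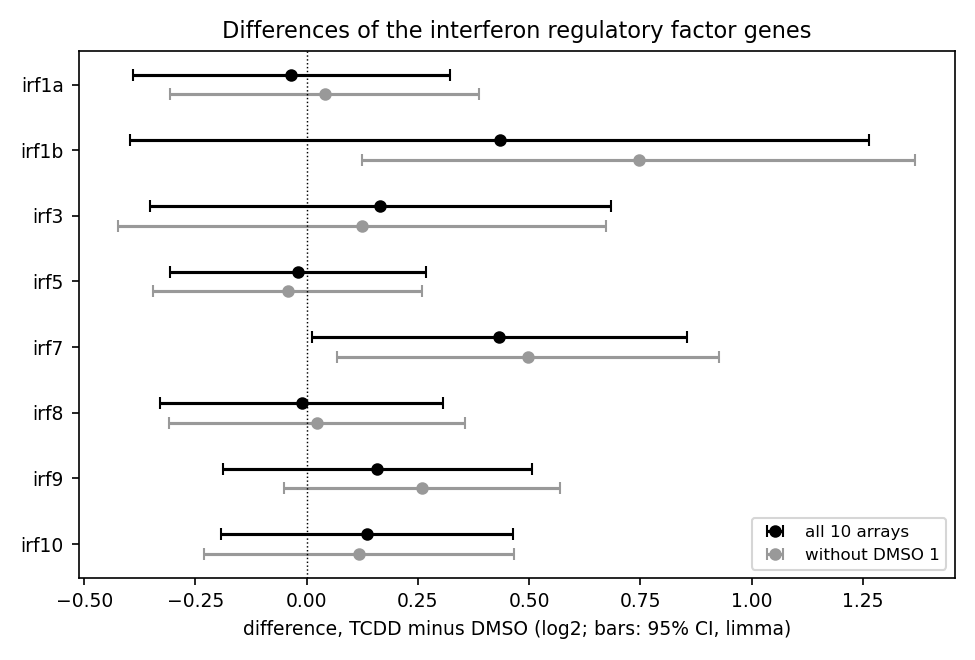
Difference, TCDD minus DMSO, on the log2 scale (horizontal axis) for each IRF gene, with the 95% confidence interval from limma over all 10 arrays (black) and without DMSO 1 (grey). Over all arrays the interval of irf7 alone lies off 0 (0.012 to 0.85), and without DMSO 1 that of irf1b does too (0.13 to 1.37).

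The members are grouped here by their r over the same 10 arrays, as a description. None of the 28 pairs passed Benjamini-Hochberg adjustment. irf1b, irf7 and irf9 correlated with one another, with a Pearson r of 0.71 for irf1b and irf7 (Spearman rho 0.78), 0.75 for irf1b and irf9 (rho 0.79) and 0.75 for irf7 and irf9 (rho 0.64). irf8 correlated with irf1b (r = 0.70, rho 0.70). A separate set held irf3, irf5 and irf10, with r = 0.80 for irf3 and irf10 (rho 0.82), 0.76 for irf3 and irf5 (rho 0.89) and 0.73 for irf5 and irf10 (rho 0.82).

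irf1a correlated with no other member above 0.30 over all 10 arrays, and with irf3 at 0.61 without DMSO 4 and TCDD 5. After the group means were taken out r was 0.67, 0.72 and 0.72 for the pairs of irf1b, irf7 and irf9, and 0.79 for each pair of irf3, irf5 and irf10. None of the 52 relations computed passed Benjamini-Hochberg adjustment: the permutation p was 0.00596 for irf3 and irf10 (adjusted 0.0888), 0.0122 for irf7 and irf9 (adjusted 0.0888) and 0.0237 for irf1b and irf7 (adjusted 0.112). With the 2 arrays farthest from the median of the first gene left out, r was 0.78 for irf3 and irf10, 0.80 for irf1b and irf7, 0.60 for irf1b and irf9, and 0.33 for irf7 and irf9. The arrays left out for irf7 and irf9 were DMSO 2 and DMSO 5, the lowest arrays of irf7. For irf1b and irf8 they were DMSO 1 and TCDD 4, and r was 0.32. For irf3 and irf5 r was 0.74, and for irf5 and irf10 0.54. Leaving out the farthest arrays narrows the range of the first gene, which by itself can lower r. Without DMSO 1 alone r was 0.82 for irf7 and irf9 and 0.69 for irf1b and irf8.

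**Figure D3:**
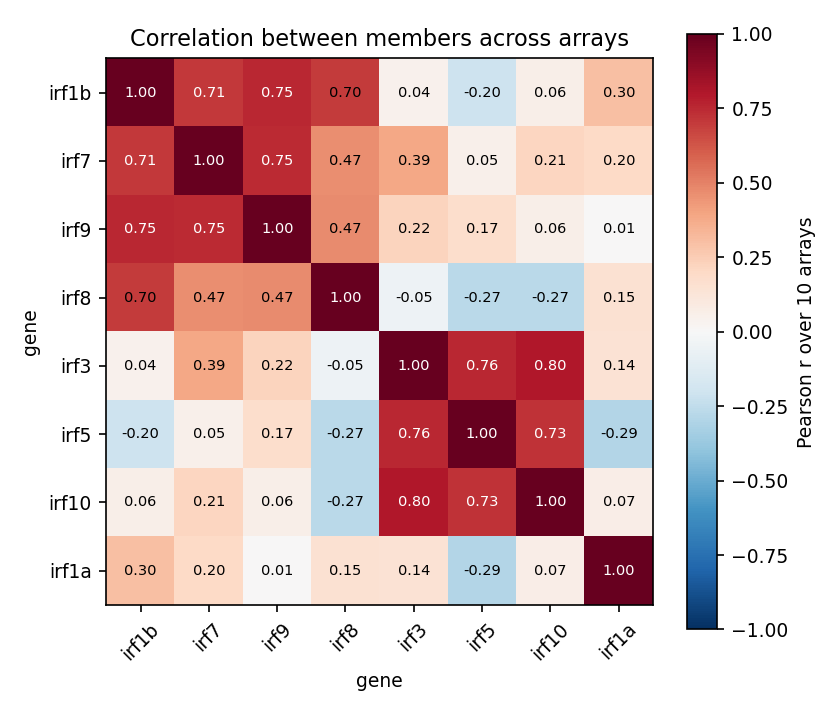
Pearson correlation of each pair of IRF genes over the 10 arrays (both axes list the genes; colour and number give r). One block of high values joins irf1b, irf7 and irf9, with irf8 nearest to irf1b, and the other joins irf3, irf5 and irf10.

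The genes most like each member were found by Pearson r over the 10 arrays among all genes without provisional clone names, as a description. They are the highest of many r over few arrays, so high values arise in part from that selection, and shared regulation was not tested. For irf9 they were dhrs13b.2 (0.96), cmpk2 (0.95), a nucleotide kinase gene of the interferon response, and prickle2b (0.95). For irf7 they were man1b1b (0.91), CLNK (0.89) and dram1 (0.89), and for irf1b wdr81 (0.94), tnfaip8l1 (0.94) and actb2 (0.93). irf3 was most like ube2l3a (0.98), a ubiquitin-conjugating enzyme gene, ostc (0.96) and znf319a (0.96).

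irf10 was most like rhbdd1 (0.97), the proteasome subunit gene psmd4b (0.96) and ufl1 (0.95), and irf5 like emc10 (0.97), ddrgk1 (0.92) and tma16 (0.91). irf8 was most like grin3ba (0.92), cckbra (0.92) and fzd6 (0.90), none of which marks macrophages in the list used, and irf1a like mfsd8l2 (0.96), ubash3bb (0.96) and slc35h1 (0.94). Each of these r was 0.89 or more without DMSO 1.

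Sensors and adaptors stand upstream of irf3 and irf7, and 0 of 24 measured genes had an unadjusted p under 0.05. The list genes rigi, mavs, sting1, tlr7, tlr8a and tlr22 were not measured, so the result does not cover them. The median difference of the measured genes was 0.023, and it ran from -0.024 without DMSO 5 to 0.088 without DMSO 1. The members with the smallest p were irak3, an inhibitory kinase of Toll-like receptor signalling, at 0.29 (95% CI -0.013 to 0.59), ikbke, which encodes a kinase of IRF3 and IRF7, at 0.22 (95% CI -0.089 to 0.53), dhx58 at 0.50 (95% CI -0.28 to 1.27) and ticam1 at 0.20 (95% CI -0.15 to 0.56). dhx58, a cytoplasmic RNA sensor of the RIG-I family, was at 9.97 in TCDD 2, while the remaining TCDD arrays spanned 8.34 to 8.39, against 7.67 to 8.94 in DMSO.

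Interferons and their receptors held 1 gene of 11 with an unadjusted p under 0.05, against 2.48% of all genes, and this gene was lower in TCDD. ifnphi3, a type I interferon gene of fish, had a TCDD mean of 7.40 ± 0.20 against a DMSO mean of 7.68 ± 0.10 (SD, n = 5 each), and differed by -0.28 (95% CI -0.55 to -0.012, limma unadjusted p = 0.0420, adjusted p = 1.00), which is opposite in sign to irf7. ifng1r at -0.29, ifng1, the interferon gamma gene, at -0.18 and the receptor gene crfb13 at 0.17 had intervals that included 0, and 4 of the 11 genes were above 0 with a median of -0.15. This median was -0.081 without DMSO 1, 0.11 when dim genes were left out of the fit, -0.014 without TCDD 2 and DMSO 1, and 0.0066 without TCDD 5, TCDD 2 and DMSO 1. ifng1 and ifng1r were dim, at 5.79 and 5.28 in TCDD and 5.97 and 5.57 in DMSO.

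In the JAK and STAT pathway 10 of 13 measured genes were above 0, against 54.6% of all genes, with a median of 0.18. The list genes stat1a and stat1b were not measured. Of the 13, 1 had an unadjusted p under 0.05, against 2.48% of all genes. That gene was socs1b, a feedback inhibitor, with a TCDD mean of 6.75 ± 0.21 against a DMSO mean of 7.05 ± 0.18 (SD, n = 5 each), and it differed by -0.30 (95% CI -0.60 to -0.00097, limma unadjusted p = 0.0494, adjusted p = 1.00). Its relatives socs3a and socs3b differed by 0.49 (95% CI -0.0026 to 0.98) and 0.35 (95% CI -0.077 to 0.77), and the kinase gene jak1 by 0.33 (95% CI -0.016 to 0.67). stat2, a DNA-binding partner of irf9 chosen here after its values were seen, differed by 0.13 (95% CI -0.21 to 0.47).

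Interferon-stimulated genes are the main targets of the family. Of 40 measured genes 32 were above 0, against 54.6% of all genes, with a median of 0.14, against 0.018 for all genes. This median was 0.085 without TCDD 4, 0.090 without TCDD 2 and 0.24 without DMSO 1. 1 of the 40 had an unadjusted p under 0.05 (2.5%, against 2.48% of all genes). It was mxg, a GTPase gene of the Mx family, which read 7.15, 8.22, 9.35, 7.40 and 7.38 in TCDD 1 to TCDD 5, against 6.88, 7.04, 6.60, 7.23 and 6.66 in DMSO 1 to DMSO 5. TCDD 3 and TCDD 2, the TCDD arrays with intestine means of 9.47 and 9.80, lay above the others. DMSO 1, which had the highest intestine mean (10.6), read 6.88. The part of intestine transcripts was not tested. The difference of mxg was 1.02 (95% CI 0.19 to 1.84, limma unadjusted p = 0.0200, adjusted p = 1.00). Mx genes are close copies of one another, so a probe may read more than 1 of them.

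The other genes of smallest p were cxcl11.1 at 0.33 (95% CI -0.095 to 0.75), ifit11 at -0.30 (95% CI -0.71 to 0.11) and xaf1 at -0.24 (95% CI -0.57 to 0.082). Classical targets were chosen after their values were seen, and their intervals included 0: isg15, a ubiquitin-like protein gene, had a TCDD mean of 9.74 ± 0.38 against a DMSO mean of 9.60 ± 0.66 (SD, n = 5 each). rsad2, the viperin gene, had a TCDD mean of 7.18 ± 0.51 against a DMSO mean of 7.05 ± 0.51. The list mean was 7.36, 7.99, 7.76, 7.75 and 7.57 in TCDD 1 to TCDD 5, against 7.95, 7.39, 7.39, 7.60 and 7.37 in DMSO 1 to DMSO 5. TCDD 2 and DMSO 1, which were high in intestine genes, were the highest.

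irf1b followed the mean of the interferon-stimulated genes most closely among the members, with r = 0.83 (rho 0.82, permutation p = 0.00411, adjusted 0.0888), and r = 0.94 without DMSO 1 and TCDD 2, the arrays farthest from the median. irf9 (r = 0.77, rho 0.71, permutation p = 0.0120, adjusted 0.0888) and irf7 (r = 0.68, rho 0.71, permutation p = 0.0313, adjusted 0.136) were next by r, at 0.66 and 0.80 without these arrays. irf8 had the second highest rho, 0.75, with r = 0.60 (permutation p = 0.0673, adjusted 0.233) and r = 0.61 without these arrays. irf3, irf5 and irf10 had r of -0.26, -0.27 and -0.25. Genes of the same fish share tissue composition and array, and no relation passed adjustment over the 52.

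**Figure D4:**
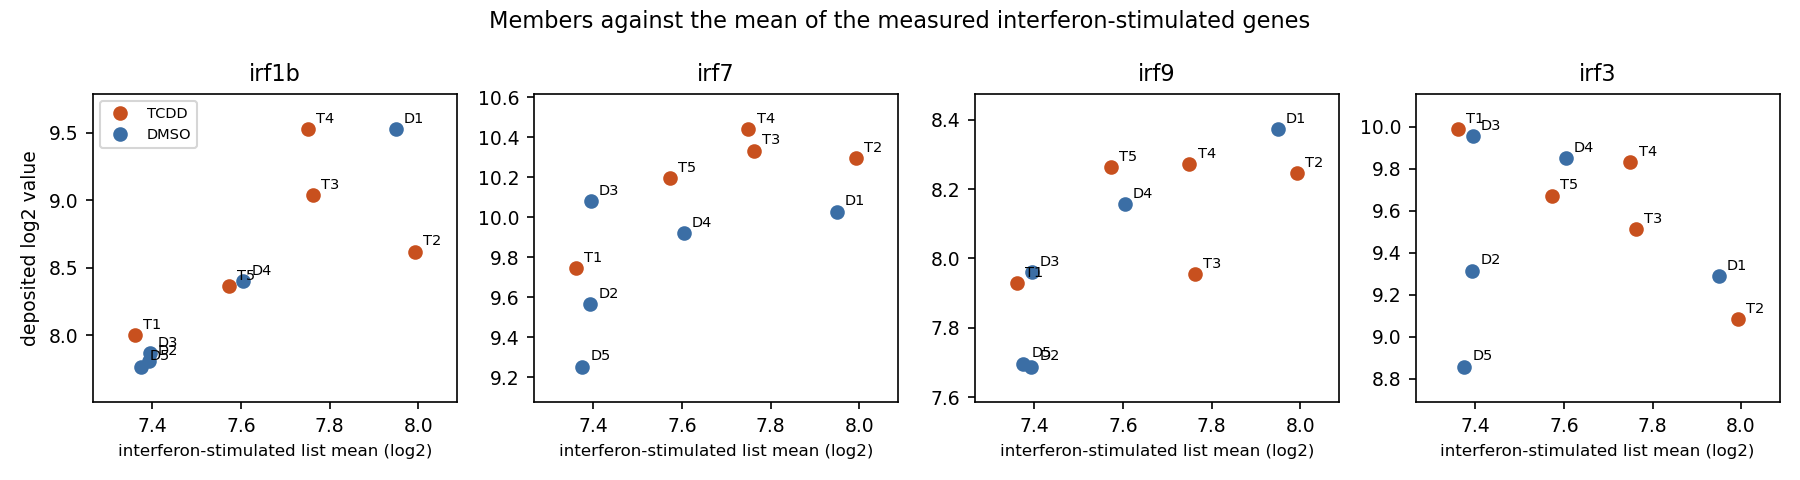
Deposited log2 value of irf1b, irf7, irf9 and irf3 (vertical axes) against the mean of the 40 measured interferon-stimulated genes (horizontal axes, log2); each point is an array, T for TCDD and D for DMSO with its replicate number. irf1b, irf7 and irf9 run upward with the list mean (r of 0.83, 0.68 and 0.77), and irf3 does not (r of -0.26).

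Among antigen presentation genes, which IRF1 controls in mammals, 15 of 23 were above 0 (median 0.072), 0 with an unadjusted p under 0.05. The median ran from -0.021 without DMSO 5 to 0.22 without DMSO 1. b2m, the light chain of class I molecules, differed by 0.34 (95% CI -0.044 to 0.73), cd74a, the chaperone of class II molecules, by 0.53 (95% CI -0.18 to 1.24), ciita by 0.19 (95% CI -0.040 to 0.42) and mhc1laa by -0.23 (95% CI -0.50 to 0.035). Partners of IRF proteins at DNA, such as the PU.1 genes and NF-kB genes, had 0 of 12 with an unadjusted p under 0.05 and a median of 0.035 (0.024 without TCDD 4 to 0.084 without DMSO 2). Among them rel differed by 0.30 and spi1a by 0.22, relb by 0.13 and rela by -0.10, each with an interval that included 0.

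Leukocytes express several of the IRF genes at high levels, so their markers stand beside the values of the members. Of 25 measured macrophage genes 15 were above 0, with a median of 0.053 and 0 at an unadjusted p under 0.05, and the list mean ran from 7.62 to 8.07 in TCDD and from 7.68 to 8.34 in DMSO, with DMSO 1 highest. The median was -0.026 without TCDD 2 and 0.13 without DMSO 1. The most different genes by p were c1qa at -0.31 (95% CI -0.71 to 0.078), havcr2 at -0.21, coro1a at 0.15 and apoeb at 0.32, each with an interval that included 0. The dimmest of the 25 macrophage genes, c1qb, was at the 33.5 percentile of all probes, close to the dim ifng1 at 32.2. csf1ra, the receptor that defines the lineage, was at the 77.9 percentile. These genes were chosen after their values were seen, and a percentile does not show which probes lie above background.

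Members followed the macrophage mean to different degrees. r was 0.84 for irf1b (rho 0.84, permutation p = 0.00261, adjusted 0.0888), 0.74 for irf9 (rho 0.84, permutation p = 0.0107, adjusted 0.0888), 0.62 for irf8 (rho 0.72, permutation p = 0.0580, adjusted 0.216) and 0.50 for irf7 (rho 0.71, permutation p = 0.141, adjusted 0.430). Without DMSO 1 and TCDD 2 these were 0.94, 0.64, 0.78 and 0.77, while irf3 had r of -0.30 over all 10 arrays. The macrophage mean and the mean of the interferon-stimulated genes were highest in the same arrays, DMSO 1 and TCDD 2, and lowest in TCDD 1. The r of a member with the one mean is therefore not independent of its r with the other. The part of macrophage number in the difference of irf7 was not tested.

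Among lymphocyte genes 12 of 24 were above 0 (median -0.032), 0 at an unadjusted p under 0.05, with list means of 7.21 to 7.51 in TCDD and 7.15 to 7.52 in DMSO. Their median was -0.11 without TCDD 2 and 0.053 without DMSO 1. The B cell receptor genes cd79a and cd79b differed by -0.30 (95% CI -0.64 to 0.047) and -0.26 (95% CI -0.54 to 0.025), cd37 by -0.22 and pax5 by 0.37. Granulocyte genes had 10 of 12 above 0, against 54.6% of all genes, and a median of 0.090 (0.051 without DMSO 1). Of the 12, 1 had an unadjusted p under 0.05 and 1 had groups that did not overlap, against 2.48% and 0.493% of all genes. Both were lyz, the lysozyme gene, at -1.05 (95% CI -1.45 to -0.65, limma unadjusted p = 0.000131, adjusted p = 0.996). mpx, the myeloperoxidase gene, was at 10.8 in TCDD 2, while the remaining TCDD arrays spanned 6.56 to 6.98, against 6.71 to 7.38 in DMSO.

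Of the 16 measured germ cell genes 0 had an unadjusted p under 0.05, with a median difference of 0.25. With the germ cell mean r was 0.41 for irf3 (rho 0.76), 0.38 for irf5 (rho 0.65) and 0.44 for irf10 (rho 0.70), with permutation p of 0.239, 0.245 and 0.202 (adjusted 0.554, 0.554 and 0.512). Without DMSO 1 and TCDD 2, the arrays with the lowest germ cell means, r was 0.45, 0.74 and 0.62. The remaining members ran the other way. r was -0.61 for irf1b (rho -0.48, permutation p = 0.0361, adjusted 0.144) and -0.51 for irf9 (rho -0.39, permutation p = 0.118, adjusted 0.382). It was -0.42 for irf8 (rho -0.72, permutation p = 0.207, adjusted 0.512), -0.40 for irf1a and -0.12 for irf7. Without DMSO 1 and TCDD 2 r was -0.40 for irf1b, 0.082 for irf9, -0.69 for irf8, -0.038 for irf1a and -0.034 for irf7.

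Marker lists of testis somatic cells and of other tissues were not tested as lists, and their part in the difference of irf7 was not tested. Over all genes 54.6% were above 0, 2.48% had an unadjusted p under 0.05 and 0.493% had groups that did not overlap. All 19 measured genes of testis somatic cells were above 0 (median 0.50), and 4 had an unadjusted p under 0.05: the steroidogenic factor gene nr5a1b at 0.98 (95% CI 0.47 to 1.5), whose groups did not overlap, sox9a at 0.85, gata4 at 0.59 and cyp17a1, a steroid synthesis enzyme gene, at 0.65. Their list mean ran from 9.68 to 10.4 in TCDD and from 8.93 to 9.90 in DMSO. All 16 liver genes were above 0 (median 1.17), and 4 had an unadjusted p under 0.05. Those of smallest p were c3a.1 at 1.58, fga at 1.56, fgb at 1.48 and cp at 1.39. The mean of the liver list was 11.04 in TCDD 5 and 7.95 to 8.88 in the other TCDD arrays, against 7.22 to 8.13 in DMSO.

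Skeletal muscle genes ran lower, with 18 of 20 below 0 (median -0.41) and 7 at an unadjusted p under 0.05, against 2.48% of all genes. Those of smallest p were tnni2a.3 at -0.68, pvalb1 at -0.47, tnnt3b at -0.79 and mybpc2b at -0.50. The mean of the muscle list ran from 6.59 to 6.75 in TCDD and from 6.81 to 7.43 in DMSO, without overlap. The TCDD means lay close to the array medians (6.71 to 6.87), and which of these probes lie above background was not tested. Intestine genes (14 of 14 above 0, median 0.55), exocrine pancreas genes (10 of 12, median 0.38) and red cell genes (5 of 7, median 0.17) held 0 with an unadjusted p under 0.05. No gene of these lists passed an adjusted p of 0.05 in limma.

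**Figure D5:**
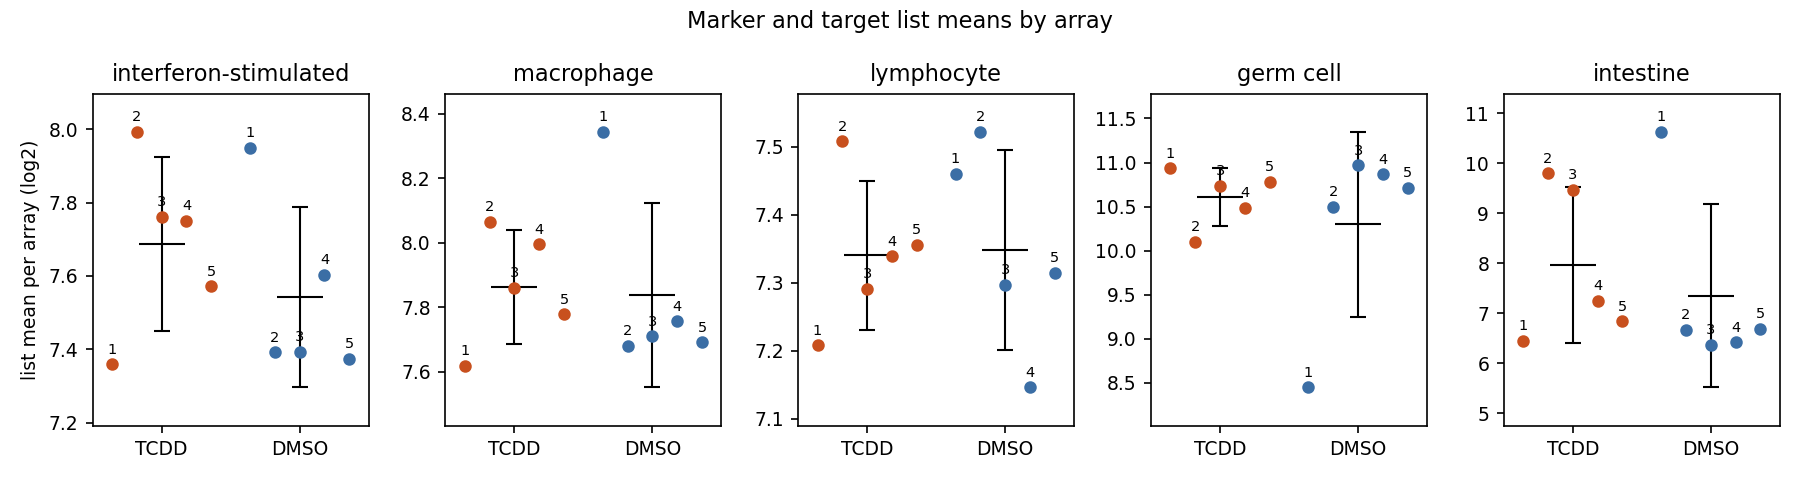
Mean log2 value per array of the measured interferon-stimulated, macrophage, lymphocyte, germ cell and intestine genes (vertical axes, a separate range per panel) in TCDD and DMSO; points are arrays with their replicate number, and the bar and whiskers are the mean and 1 SD of 5 arrays. DMSO 1 is highest for macrophage and intestine genes (8.34 and 10.6) and lowest for germ cell genes (8.45).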

How the data were processed

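Each of 10 testis RNA samples was hybridised to an Affymetrix whole-transcript array after biotin labelling, per the labels' protocols. What the authors deposited is a table with an array in each column, taken here as log2 intensities because its values run from 1.25 to 14.6. The log base, any background step and the scaling between arrays are not given in the sources. Of 75212 probes, 20806 had 1 gene symbol in the platform's annotation, 855 had several and 53551 had none. Where a gene had several probes, the brightest on average was kept. Groups were taken from the sample titles and compared with limma 3.58.1 in R 4.3.3 (linear model on group, empirical Bayes variances), with Benjamini-Hochberg adjustment over all 19260 genes. The model was tested on simulated data. For arrays, their number limits the precision, and the median standard error of a difference was 0.18. The titles call the samples biological replicates and say nothing of tanks or pools. The p-values set a group difference against the spread between these samples and take the samples as independent, which the labels do not show.

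Relations across arrays used 100000 permutations, two-sided. The members and gene lists were chosen with earlier results of these data known. From each list up to 4 measured genes with the smallest p were named, with any gene whose groups did not overlap, and for each member the 3 genes with the highest r. Alternatives were median centring, quantile normalization, weights per array, a replicate block, robust variances with a trend, leaving out dim genes, the mean of all probes, a plain equal-variance test and leaving out arrays. The labels do not pair the arrays by replicate number. Deviations of same-numbered arrays correlated between -0.58 and 0.29, which does not settle whether any shared a batch.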

Additional observations from a re-analysis of the deposited data

Results flagged for a closer look

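No IRF gene had an array far from the others of its group by Dixon's test at the 95% level. Of 48 groups of 5 values looked at (8 genes and 16 list means in each group), 6 list means had such an array, and chance flags about 1 in 20. Of these, 5 lay in DMSO 1: the interferon and receptor mean of 7.26 (next 7.00), the macrophage mean of 8.34 (next 7.76), the germ cell mean of 8.45 (next 10.5), the intestine mean of 10.6 (next 6.69) and the exocrine pancreas mean of 12.5 (next 9.10). The other was the sensor and adaptor mean of TCDD 3, at 7.91 against 8.04 to 8.07 in the other TCDD arrays.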

How the results depend on the processing

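irf1b, irf3, irf7, irf9 and irf10 kept a difference above 0 under every alternative run, and no IRF gene passed an adjusted p of 0.05 in any. Differences near 0 turned in sign: irf1a was 0.097 with array weights, 0.0090 after quantile normalization, 0.0068 after median centring, 0.074 without TCDD 2 and DMSO 1, and 0.16 without TCDD 5 as well. irf8 was 0.012 with array weights, 0.030 after median centring and 0.050 without the 3 arrays, and irf5 was 0.022 after median centring. When single arrays were left out irf1a ran from -0.14 to 0.041, irf5 from -0.074 to 0.064 and irf8 from -0.12 to 0.063. Median centring adds 0.041 to every gene, which put 8 members (5 as deposited) and 64.8% of all genes above 0.

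irf7 was the 1 member with an unadjusted p under 0.05. The count was 0 with the replicate block (difference of irf7 0.43, 95% CI -0.044 to 0.91), with a variance trend (95% CI -0.0026 to 0.87) and after quantile normalization (95% CI -0.038 to 0.87). It was 2 with array weights and without TCDD 2 and DMSO 1 (irf7 and irf1b), 1 without TCDD 5 as well (irf1b), and 0 to 2 when single arrays were left out. With array weights irf1b differed by 0.77 and irf7 by 0.57 (limma adjusted p = 0.646 and 0.630), where 7.27% of all genes had an unadjusted p under 0.05. The block left the members' other calls and the count of 0 genes at an adjusted p under 0.05 as they were, and its values for single genes outside the family are not given here. Without single arrays 0 to 1 member had groups that did not overlap.

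Over all genes, 478 had an unadjusted p under 0.05. There were 1400 with array weights, 255 without dim genes, 1190 without TCDD 2 and DMSO 1, 1138 without TCDD 5 as well, and 289 to 1280 when single arrays were left out (without DMSO 2 and without DMSO 1). A plain equal-variance test gave 574 and 0 after adjustment. Of the 478, 154 were higher and 324 lower in TCDD, and the split was 183 against 280 with quantile normalization and 225 against 228 with median centring. The 95 genes whose groups did not overlap became 53 without dim genes, 685 and 1209 without the 2 and the 3 arrays, and 132 to 483 without single arrays. An adjusted p under 0.05 was reached by 1 gene without TCDD 2 and DMSO 1, and by 0 to 1 without single arrays. Fewer genes were tested without dim genes, and fewer arrays in the fits that left some out. The cause of these shifts was not tested. The median of the interferon and receptor genes (-0.15) was 0.11 without dim genes. irf1a was among the dim genes left out and has no value there. Each member had 1 probe, so no second probe could be compared.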

Other observations

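Of other genes of the family and its cofactors 7 were measured, with differences from -0.09 (irf2a) to 0.28 (irf2bp2b). irf2a, annotated on the array under a symbol of its own, had a TCDD mean of 9.04 ± 0.17 against a DMSO mean of 9.13 ± 0.20 (SD, n = 5 each), and differed by -0.09 (95% CI -0.39 to 0.20). irf4a, the copy of a factor of B cell and plasma cell maturation, differed by 0.09 (95% CI -0.44 to 0.62) and read 7.79 in DMSO 1, against 8.59 to 8.99 in TCDD and 8.85 to 9.19 in the other DMSO arrays. irf2bp2b and irf2bpl, which encode IRF2-binding corepressors, differed by 0.28 (95% CI -0.056 to 0.62) and 0.08 (95% CI -0.21 to 0.36). Of the 7 measured genes of this kind 5 were above 0, with 0 at an unadjusted p under 0.05.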
